A study of Homo sapiens with 8 samples.

Results

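Stand-alone long noncoding RNA (lncRNA) promoters were the windows reaching 1 kb to either side of the 5′ end of a GENCODE lncRNA gene on chromosomes 1 to 22 or X, where that 5′ end lay more than 5 kb from every start of a protein-coding transcript. Of 18756 lncRNA genes, 13459 met this rule, among 62062 genes of any type. The other 5297 lncRNA genes lay nearer to a coding start, and 19970 protein-coding genes were windowed in the same way. The median distance from a stand-alone 5′ end to the nearest coding start was 54.4 kb. Only 3.19% of the canonical transcripts of these genes began more than 1 kb inside the gene, and 9744 genes carried an Ensembl identifier in place of a name. The windows of 1214 genes overlapped that of another, and merging left 12831 separate regions.

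lncRNA genes are transcribed by RNA polymerase II, and many share a promoter with a divergent coding gene, which the distance rule sets aside here. Sp1 is a zinc finger activator that recognizes GC boxes, mostly in CpG-rich promoters. CTCF is a zinc finger protein with a long recognition sequence that anchors chromatin loops and also binds promoters. A promoter in a peak list says that the protein was recovered there after crosslinking and does not report transcription of the lncRNA, which was not measured in these files.

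The lists come from chromatin immunoprecipitation followed by sequencing (ChIP-seq) in the osteosarcoma line U-2 OS, fixed with 1% formaldehyde for 6 min. Both Sp1 libraries (1 for each of 2 rabbit antibodies) and the IgG library came from cells with V5 and Halo tags knocked into endogenous SP1, which the sample titles call parental. Both CTCF replicates came from clone C32, a single clone with endogenous FLAG-Halo-CTCF, although the series description speaks of wild type cells. Each group carries its tag throughout, and antibody, tag and cell line change together between the Sp1 and CTCF libraries, so these cannot be told apart. The series description calls the CTCF replicates independent and does not say whether they were separate cultures.

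The 4 lists held 8706 and 5973 Sp1 peaks (antibodies 1 and 2) and 42765 and 36082 CTCF peaks (replicates 1 and 2), against 106 for IgG. Read depth is not in the lists and was not used here, and list length depends on it. The Sp1 lists have no replicate. Shares below therefore carry 95% Wilson intervals, which cover counting error only, and no test between groups was made. Fold is the enrichment over control that the authors' peak caller gave to a peak, and a summit is the peak's highest position. Windows are not independent replicates, since some share a summit.

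Sequences are shown for 3 kinds of site that recur in the results, as the 101 bases centred on a summit, read 5′ to 3′ on the plus strand of hg38. The first set shows GC boxes, the element bound by Sp1, at antibody 1 summits of well-known lncRNAs. Capitals mark GGGCGG or its reverse complement.
DANCR, Sp1 antibody 1, chr4:52712249-52712349: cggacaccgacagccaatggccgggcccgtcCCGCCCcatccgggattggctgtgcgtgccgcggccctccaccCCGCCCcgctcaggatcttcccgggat
SNHG8, Sp1 antibody 1, chr4:118278631-118278731: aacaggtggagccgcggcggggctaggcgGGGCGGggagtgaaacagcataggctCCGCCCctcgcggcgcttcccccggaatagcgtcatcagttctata
MALAT1, Sp1 antibody 1, chr11:65497587-65497687: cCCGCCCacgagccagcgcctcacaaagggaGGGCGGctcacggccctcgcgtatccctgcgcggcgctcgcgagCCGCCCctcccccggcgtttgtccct
NEAT1, Sp1 antibody 1, chr11:65422655-65422755: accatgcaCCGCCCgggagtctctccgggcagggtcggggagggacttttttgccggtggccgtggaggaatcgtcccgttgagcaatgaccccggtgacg
All 4 windows, picked to show the element, hold at least 1 GC box, and MALAT1 holds 3. Antibody 1 windows of other known lncRNAs, among them EPB41L4A-AS1, SNHG11, SNHG17, FTX and DRAIC, hold none. The share over all such summits is given below. The SNHG8 window also holds 1 CCGGAA, which is not capitalized.

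The next set shows sites where the antibodies gave very different folds. Capitals mark CCGGAA, a sequence read by ETS-family factors, in the first 3 windows. In SNHG16 they mark TCGCGAGA, an element of CpG-rich promoters. Each was matched on either strand. The LINC01166 window holds neither of these words nor a GC box.
NORAD, Sp1 antibody 2, chr20:36050975-36051075: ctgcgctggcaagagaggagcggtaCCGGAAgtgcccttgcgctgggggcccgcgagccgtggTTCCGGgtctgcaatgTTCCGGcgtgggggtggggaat
MRPS31P5, Sp1 antibody 2, chr13:52194431-52194531: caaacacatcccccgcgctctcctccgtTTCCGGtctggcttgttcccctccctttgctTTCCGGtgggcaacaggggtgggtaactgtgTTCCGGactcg
GLUD1P3, Sp1 antibody 2, chr10:73730477-73730577: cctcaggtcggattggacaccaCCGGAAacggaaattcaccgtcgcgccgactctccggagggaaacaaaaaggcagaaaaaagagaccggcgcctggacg
SNHG16, Sp1 antibody 1, chr17:76557664-76557764: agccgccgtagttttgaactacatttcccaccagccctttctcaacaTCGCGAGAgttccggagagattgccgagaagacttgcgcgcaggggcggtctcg
LINC01166, Sp1 antibody 2, chr10:132965445-132965545: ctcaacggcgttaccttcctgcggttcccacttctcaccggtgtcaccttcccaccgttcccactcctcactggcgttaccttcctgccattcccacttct
NORAD and MRPS31P5 hold 3 copies of CCGGAA each and GLUD1P3 holds 1. Other sites high with antibody 2 lack it, among them JPX, with an antibody 2 fold of 109 and no antibody 1 summit. The share over all pairs where antibody 2 was far higher is given below. The SNHG16 window holds 1 GC box and 1 CCGGAA besides its TCGCGAGA.

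The last set shows CTCF sites with replicate 1 folds from 55.4 to 440, all above the median of 40.04 at stand-alone promoters. Capitals mark a match to the CTCF core, a 12-base consensus, with at most 1 mismatch on either strand.
ENSG00000236501, CTCF replicate 1, chr2:177164705-177164805: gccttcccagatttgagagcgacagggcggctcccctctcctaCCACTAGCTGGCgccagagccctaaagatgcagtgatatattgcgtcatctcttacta
LINC00461, CTCF replicate 1, chr5:88691081-88691181: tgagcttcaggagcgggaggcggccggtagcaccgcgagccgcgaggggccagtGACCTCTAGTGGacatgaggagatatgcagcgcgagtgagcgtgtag
LINC01116, CTCF replicate 1, chr2:176638304-176638404: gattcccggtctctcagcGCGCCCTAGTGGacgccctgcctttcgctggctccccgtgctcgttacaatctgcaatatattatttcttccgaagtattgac
EPB41L4A-AS1, CTCF replicate 1, chr5:112160710-112160810: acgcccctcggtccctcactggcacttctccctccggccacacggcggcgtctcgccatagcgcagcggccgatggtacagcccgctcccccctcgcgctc
EPB41L4A-AS1 has no such match although its replicate 1 fold was the highest among the stand-alone genes of the 3 gene lists described later.

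Few stand-alone lncRNA promoters carried Sp1. Antibody 1 had a summit in 524 windows (3.89%, interval 3.58 to 4.23%) and antibody 2 in 357 (2.65%, 2.39 to 2.94%). Across all genes the same lists marked 14.3% and 9.25%. Both antibodies marked 278 windows (2.07%, 1.84 to 2.32%), compared with 7.94% of all genes, 15.1% of lncRNA genes near a coding start and 17.9% (17.4 to 18.5%) of protein-coding genes. The share of coding genes was thus 8.68 times that of stand-alone lncRNA genes (interval of the ratio 7.70 to 9.79).

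CTCF was the more frequent of the proteins. Replicate 1 had a summit in 1157 windows (8.60%) and replicate 2 in 952 (7.07%), against 12.7% and 9.57% of all genes. Both replicates marked 925 windows (6.87%, 6.46 to 7.31%), compared with 9.24% of all genes and 15.4% (14.9 to 15.9%) of coding genes, a ratio of 2.24 (2.09 to 2.41). All 4 lists met in 67 windows (0.498%, 0.392 to 0.632%), against 1.81% of all genes and 3.93% of coding genes. Without antibody 2 the value was 1.00%, with named genes alone 0.754%, with summits of a pair within 100 bp 0.327%, and with windows of 500 bp and 2 kb 0.290% and 0.758%. IgG marked 0 stand-alone windows and 0.00806% of all genes. In total 1564 windows (11.6%) held a summit of any of the 4 lists, and 11895 held none.

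**Figure D1:**
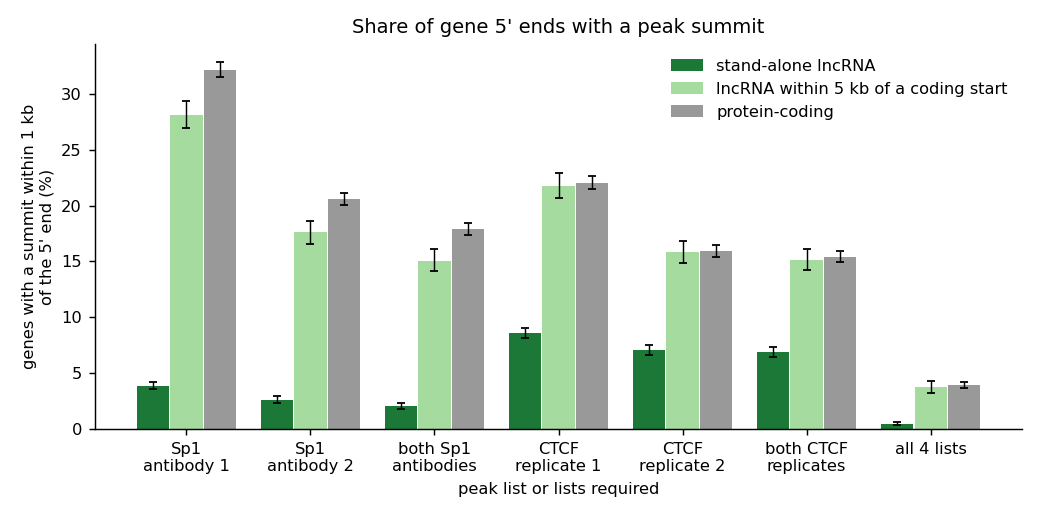
Bars give the percentage of genes whose 5′ end had a summit within 1 kb in each peak list, or in the lists required together, for 13459 stand-alone lncRNA, 5297 near lncRNA and 19970 protein-coding genes. Error bars are 95% Wilson intervals (counting error only). Stand-alone lncRNA genes had the lowest share in all 7 columns, and in them CTCF exceeded Sp1, whereas for coding genes antibody 1 of Sp1 marked the largest share.

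The values on either side of the 5 kb limit that defines the set were close. Just inside it, at 5 to 6 kb from a coding start, 2.42% of 331 promoters carried Sp1 and 8.76% carried CTCF. Just outside, at 4 to 5 kb, the values were 2.84% of 352 and 9.09%. Within 1 kb of a coding start, by contrast, 22.0% of lncRNA genes carried Sp1 and 18.4% CTCF. From 10 to 50 kb the shares were 2.82% and 8.07% of 5028. Beyond 200 kb, 1.35% (0.985 to 1.85%) of 2816 promoters carried Sp1 and 4.47% (3.77 to 5.30%) carried CTCF.

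Where Sp1 was present, it lay close to the start. Summits were counted here once for each window that held them, so a summit in overlapping windows counts more than once. Of 530 antibody 1 summits counted this way, 69.8% (65.8 to 73.6%) fell within 250 bp of the 5′ end, where an even spread over the window would give 25%. For antibody 2 the share was 62.5% (57.4 to 67.3%). CTCF was less concentrated, with 42.0% (39.3 to 44.8%) of 1197 replicate 1 summits and 45.0% (41.9 to 48.1%) of replicate 2 summits in the same interval. The intervals of the proteins do not overlap, but they treat repeated counts of a summit as separate. Distinct summits numbered 427 and 298 for antibodies 1 and 2, and 1104 and 916 for CTCF replicates 1 and 2. Upstream positions prevailed for both, with 63.2% of antibody 1 and 57.6% of CTCF replicate 1 summits on the upstream side.

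Summit density gave the same picture over a wider span. Around stand-alone 5′ ends, the 500 bp bins on either side of the start held 16.5 antibody 1 summits per 1000 genes on average, against a mean of 2.04 at distances over 5 kb, 8.09 times as many. The ratio was 8.06 for antibody 2, 3.14 for CTCF replicate 1 and 3.21 for replicate 2. Around coding genes the ratios were 38.8 and 37.7 for Sp1 and 6.28 and 5.35 for CTCF. By the rule, coding starts are absent within 5 kb of the stand-alone 5′ ends but not beyond.

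**Figure D2:**
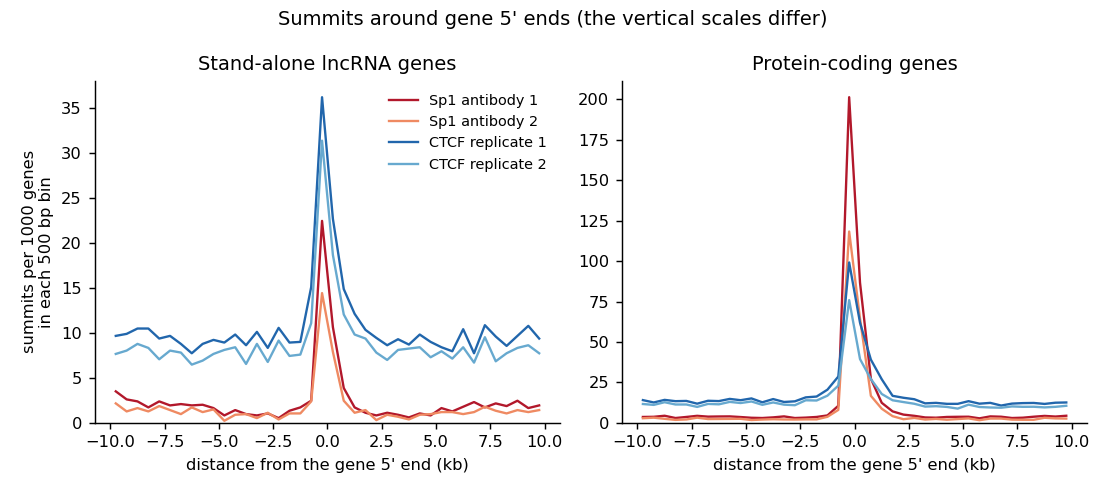
Lines give the number of summits per 1000 genes in 500 bp bins within 10 kb of the gene 5′ end, with negative distances upstream, for stand-alone lncRNA genes (left) and protein-coding genes (right), on different vertical scales. All 4 lists peak at the 5′ end in both panels, and at lncRNA genes CTCF stands above Sp1 at every distance.

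CpG content was higher at promoters with Sp1 than over all stand-alone promoters. The ratio of observed to expected CpG dinucleotides in the window had a median of 0.24 over all stand-alone promoters, 0.62 in those with both Sp1 antibodies, 0.38 in those with both CTCF replicates and 0.61 in coding genes. Only 903 stand-alone promoters (6.71%) reached 0.6, compared with 52.1% of coding promoters. In these 903, Sp1 was present in 17.2% (14.8 to 19.8%) and CTCF in 24.1% (21.5 to 27.0%). Of the 8965 promoters below 0.3, Sp1 was present in 8 (0.0892%, 0.0452 to 0.176%) and CTCF in 318 (3.55%, 3.18 to 3.95%).

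The high class exceeded the low class by 192 times for Sp1 (94.8 to 390) and by 6.81 times for CTCF (5.81 to 7.97). The Sp1 ratio rests on the 8 low-CpG promoters and was 62.1 with antibody 2 alone and 106 with antibody 1 alone. Among genes of like CpG content the gap to coding genes was narrower for Sp1, and for CTCF it was reversed in the high class. In the high class, Sp1 marked 26.6% (25.7 to 27.4%) of coding promoters. CTCF marked 20.6% (19.9 to 21.4%) of them, below the 24.1% of stand-alone promoters. CTCF replicates 1 and 2 alone marked 30.4% and 21.3% of these coding promoters. The order of the proteins among stand-alone promoters of that class depended on the lists: antibody 1 alone marked 30.8% (27.9 to 33.9%) and antibody 2 alone 19.4%, beside 33.0% and 25.4% for CTCF replicates 1 and 2. Between 0.3 and 0.6, Sp1 marked 3.20% of stand-alone and 15.9% of coding promoters, and CTCF 10.8% and 14.6%.

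**Figure D3:**
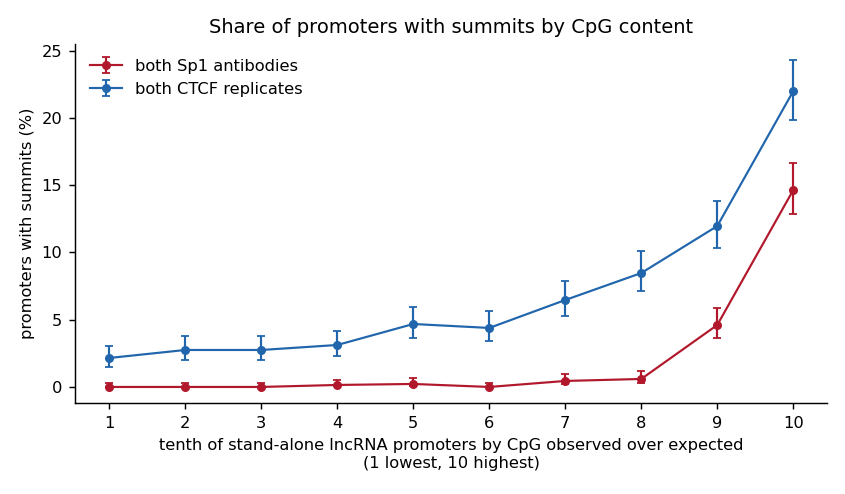
Points give the percentage of stand-alone lncRNA promoters with summits of both Sp1 antibodies or of both CTCF replicates, in 10 equal groups ordered by observed over expected CpG, and error bars are 95% Wilson intervals. Sp1 stays below 1% up to the eighth group and reaches 14.6% in the highest, while CTCF runs from 2.15% in the lowest to 22.0% in the highest.

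CTCF was found more often where Sp1 was. It marked 24.1% (19.4 to 29.5%) of stand-alone promoters with Sp1 and 6.51% (6.10 to 6.94%) of those without. Within the high CpG class these shares were 27.7% (21.3 to 35.3%) and 23.4% (20.5 to 26.6%), whose intervals overlap. In the class from 0.3 to 0.6 they were 20.0% (13.7 to 28.2%) and 10.5% (9.55 to 11.6%). At coding genes CTCF marked 21.9% with and 14.0% without Sp1.

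Gene features also went with occupancy. Promoters outside coding genes carried Sp1 in 2.71% (2.402 to 3.06%) of 9444 cases and CTCF in 7.70% (7.18 to 8.25%). For lncRNAs that start inside a coding gene on its opposite strand, the values were 0.493% (0.294 to 0.826%) and 5.00% (4.26 to 5.87%) of 2838. Genes with 5 or more annotated transcripts carried Sp1 in 5.44% and CTCF in 11.7% of 1690 cases, whereas genes with 1 transcript carried them in 1.25% and 5.72% of 8961. Named small RNA hosts (SNHG and MIR host gene names) stood highest among the name classes, with 9.20% (4.73 to 17.1%) and 16.1% (9.83 to 25.2%) of 87. The 580 genes with names of other kinds were close, at 8.10% (6.15 to 10.6%) and 13.1% (10.6 to 16.1%), and the intervals overlap. Unnamed genes stood at 1.66% and 6.39%. Over all named genes the Sp1 share was 3.12%, which lowers the ratio of coding to stand-alone genes to 5.74.

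Repeated sequence was common at these sites. The 32 bases at the centre of the summit occurred more than once in hg38 for 27.1% (23.1 to 31.5%) of antibody 1 and 14.3% (12.3 to 16.5%) of CTCF replicate 1 peaks at stand-alone promoters, compared with 2.25% and 2.98% at coding promoters. Reads from near-identical copies cannot always be placed with certainty, and where the copies lie was not examined for these sites as a set. Of the 278 promoters with Sp1, 95 (34.2%) had such a summit, and without them the Sp1 share was 1.36% (1.18 to 1.57%). For CTCF 148 of 925 did, and the share without them was 5.77%. The 718 lncRNA genes that GENCODE tags as overlapping a pseudogene carried Sp1 in 8.36% (6.55 to 10.6%) and CTCF in 13.8% (11.5 to 16.5%), against 1.71% and 6.48% of the rest.

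The GC box was the most frequent of the 3 short words at antibody 1 summits. It lay within 50 bp of 57.8% (51.2 to 64.0%) of the 225 separate antibody 1 summits at promoters with both antibodies, and of 58.3% of those at coding genes. Windows of the same length at the 5′ ends held it in 15.5% of all genes, 32.6% of coding genes and 6.30% of stand-alone lncRNA genes. At summits of antibody 2 the share was 41.3% (35.1 to 47.9%). Where antibody 2 was found without antibody 1, only 8 of 67 summits had a GC box (11.9%, 6.18 to 21.8%), and CCGGAA was present in 15 (22.4%, 14.1 to 33.7%). Where antibody 1 was found without antibody 2, a GC box lay at 42.5% and CCGGAA at 8.00% of 200 summits. CCGGAA was present at 16.9% (12.6 to 22.3%) of antibody 2 summits at promoters with both antibodies and at 22.98% of those at coding genes. It was present at 5.67% of all gene 5′ ends and at 10.8% of coding 5′ ends. At antibody 1 summits its share was much the same at promoters with both antibodies, 16.4% (12.2 to 21.8%), and 17.9% at coding genes. TCGCGAGA was present at 6 of the 225 antibody 1 summits (2.67%), at 0.319% of all gene 5′ ends and at 0.761% of coding 5′ ends.

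CTCF sites at these promoters matched the CTCF core more often than those at coding genes. An exact match lay within 50 bp of 18.1% (15.7 to 20.8%) of 867 replicate 1 summits and a match with up to 1 mismatch at 55.1% (51.8 to 58.4%). At coding promoters the values were 7.24% (6.33 to 8.27%) and 33.8% (32.1 to 35.6%), and at the 5′ ends of all genes 0.114% and 1.22%. Ordered by fold, the weakest 25% of these peaks had a match with up to 1 mismatch in 32.3% (26.4 to 38.7%) and the next 25% in 57.9%. The upper groups had one in 68.1% (61.6 to 73.9%) and, for the strongest, 64.1% (57.5 to 70.1%). Stand-alone promoters also had stronger CTCF peaks than coding promoters: their median fold was 40.04 in replicate 1 and 28.8 in replicate 2, against 17.6 and 17.4. The medians of the whole CTCF lists, 27.5 and 20.0, lay between these values. For Sp1 the medians were 7.54 and 6.66 at stand-alone promoters, against 8.66 and 6.93 at coding promoters.

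Fold was close in rank between the CTCF replicates and far less so between the Sp1 antibodies, at stand-alone and coding promoters alike. Across 866 pairs of CTCF peaks Spearman's rho of fold was 0.944, the median log2 ratio of replicate 2 to replicate 1 was −0.91, and summits lay a median of 8 bp apart. Across 225 pairs of Sp1 peaks rho was 0.281, the median log2 ratio of antibody 2 to antibody 1 was −0.65, and summits lay 48 bp apart. At coding promoters rho was 0.952 for CTCF and 0.319 for Sp1, with median log2 ratios of −0.97 and −0.66. These are descriptions across peaks of 2 libraries. Antibody 2 was more than 4-fold higher at 13 of 225 Sp1 pairs and antibody 1 at 8, beside 204 and 108 of 2889 pairs at coding promoters. For CTCF, replicate 1 was more than 4-fold higher at 17 pairs and replicate 2 at 0. CCGGAA lay at 6 of the 13 antibody 2 summits (46.2%, 23.2 to 70.9%) and at 15.1% (10.9 to 20.5%) of the other 212, while the GC box lay at 2 of 13 and at 43.4% of 212.

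**Figure D4:**
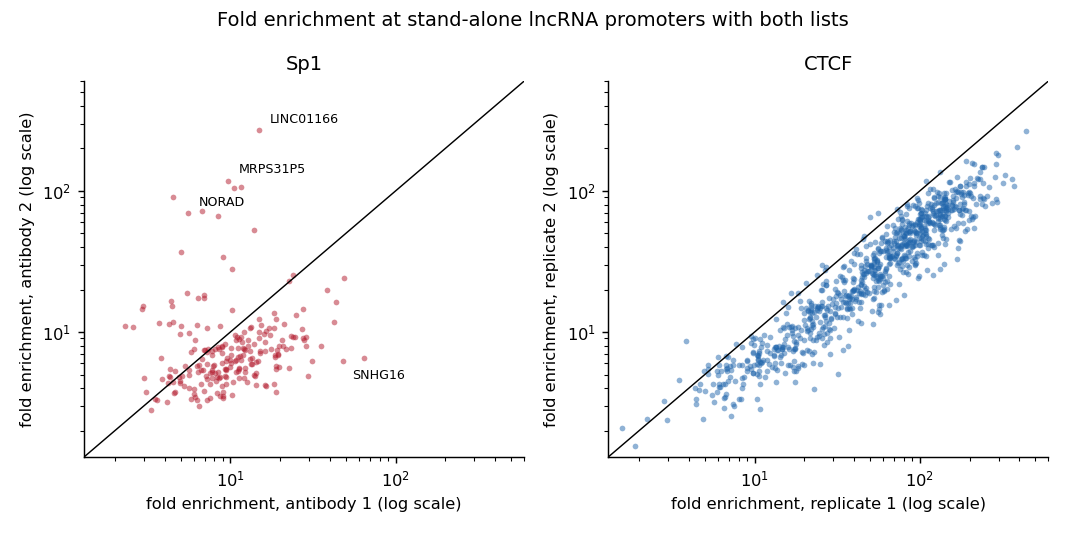
Each point is a pair of peaks at a stand-alone lncRNA promoter, with fold enrichment in the first library on the horizontal and in the second on the vertical axis (log scales, black line at equal fold), for 225 Sp1 and 866 CTCF pairs. CTCF points follow a narrow band, below the line for all but 26 pairs, while Sp1 points scatter widely, with LINC01166, MRPS31P5 and NORAD far above it and SNHG16 below.

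The 6 strongest Sp1 promoters were chosen by the mean log2 fold of both antibodies, so a very high fold with 1 antibody sufficed. LINC01166 and LINC01168, neighbouring genes on opposite strands of chromosome 10 that share 1 pair of peaks, had folds of 14.9 with antibody 1 and 269 with antibody 2. The sequence at their summits, printed above for antibody 2, occurs 4 times in hg38. ENSG00000251536 on chromosome 12, inside a coding gene, followed with 11.6 and 107, over sequence present 20 and 21 times. Both sites lie in repeated sequence. Whether the copies lie side by side or elsewhere in the genome was not examined, so the placement of reads may be uncertain.

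The other leading sites were not all of that kind. MRPS31P5, annotated as a lncRNA under a pseudogene name on chromosome 13, had 9.66 with antibody 1 and 118 with antibody 2, with summit offsets of −5 and −16 bp from its 5′ end, where negative values are upstream. ENSG00000254929 on chromosome 10 had 10.5 and 105. For both genes the summit sequence occurs once in hg38, counting exact matches only, so near-identical copies are not excluded. The antibody 2 window of ENSG00000254929 is nearly identical to that of GLUD1P3, printed above and also on chromosome 10. These sites may therefore not be independent, and the placement of reads may be uncertain. ENSG00000289222 on chromosome 16 was instead higher with antibody 1, at 48.5 and 24.1 over 2 and 3 GC boxes at single-copy summits. LINC01237 on chromosome 2 had 38.4 and 20.0 with no GC box at either summit, the second over sequence present 12 times.

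The highest ratios of antibody 2 to antibody 1 were at GLUD1P3 (4.51 and 90.9, log2 ratio 4.33), at the LINC01166 and LINC01168 site (4.18) and at NORAD (5.56 and 69.8, 3.65). GLUD1P3 shares its peaks with BMS1P4, and NORAD, an abundant RNA that binds Pumilio proteins, had summit offsets of 10 and −7 bp. The lowest ratios were at ENSG00000289482 (64.4 and 6.54, −3.30), SNHG16 (48.4 and 6.28, −2.94) and DDX11L16 (29.7 and 4.90, −2.60). The antibody 1 windows of the first and the second of these hold TCGCGAGA.

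The strongest CTCF promoter was ENSG00000236501 on chromosome 2, with folds of 440 and 264 and summit offsets of −99 and −100 bp. DDX11L16, an annotated copy of a subtelomeric gene family with its 5′ end at position 11555 of chromosome 16, had 388 and 206, and the copy on chromosome 15 had 289 and 186. The summit sequences of the DDX11L16 copies occur 5 to 8 times in hg38. ENSG00000289485 (296 and 181), ENSG00000287877 (291 and 156) and SLC25A25-AS1 (361 and 121) completed the leading group, all over single-copy sequence and with an exact core match. Of these, ENSG00000287877 was farthest from a coding start, at 381 kb.

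Of promoters with all 4 lists, DDX11L16 ranked first by mean log2 fold. LINC02558 on chromosome 22 had Sp1 folds of 14.9 and 10.0 and CTCF folds of 202 and 97.0, with summit offsets from −31 to 1 bp. At ENSG00000278002 (12.3, 7.51, 212 and 156) and ENSG00000291149 (16.5, 4.13, 372 and 108), by contrast, the CTCF offsets were −858 and −846 bp and −503 and −501 bp, away from the Sp1 summits. For 1 Sp1 summit of each, the sequence occurs more than once in hg38.

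Host genes of small RNAs, whose introns or exons are processed to snoRNAs or microRNAs, were examined as a list. Of 60 listed genes 44 were stand-alone, and 20 of these had a summit: both Sp1 antibodies in 9, both CTCF replicates in 9 and all 4 lists in 3. Over all stand-alone promoters the shares were 11.6% for any list, 2.07% for Sp1 and 6.87% for CTCF, and the list was put together by hand. SNHG16, a snoRNA host, had CTCF folds of 35.1 and 23.2 beside its Sp1 folds. EPB41L4A-AS1 had Sp1 folds of 14.2 and 6.16 and CTCF folds of 272 and 81.8. SNHG11 had 6.62, 5.40, 143 and 96.9, in the same order. In these 3 the strongest summit of each of the 4 lists lay within 327 bp of the 5′ end.

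Others carried Sp1 alone. DANCR, which hosts snoRNAs, had folds of 10.9 and 6.32, SNHG8 7.11 and 4.84, SNHG15 11.4 and 5.58, SNHG25 3.08 and 3.79, and MIRLET7A1HG, the host of a let-7 cluster, 16.1 and 7.39. SNHG6 had 24.0 and 25.5 with its summits 805 and 839 bp inside the gene. SNHG5, SNHG29, SNHG30 and SNHG32 had antibody 1 only, at 4.97 to 11.1.

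CTCF without Sp1 was seen at SNHG7 (132 and 27.9), SNHG26 (62.3 and 28.0), MIR100HG (32.7 and 12.7) and MIR193BHG (30.0 and 17.2). SNHG17 (238 and 147) and MIR9-1HG (78.5 and 42.2) had CTCF with antibody 1 only, at 3.86 and 6.11. MIR663AHG had a summit of CTCF replicate 2 alone, at 3.28. The 24 others, among them MIR17HG, MIR155HG, SNHG12 and DLEU2, had none.

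Of 8 stand-alone nuclear or architectural lncRNAs, 7 had a summit and 1, KCNQ1OT1, an imprinted antisense RNA, had none, beside 11.6% of all stand-alone and 46.05% of coding promoters with any summit. NEAT1, the scaffold of paraspeckles, had all 4 lists, with Sp1 folds of 11.6 and 6.38 and CTCF folds of 4.85 and 2.44. Its CTCF summit offsets were −320 and 89 bp, so the replicates did not mark the same position. MALAT1, a nuclear speckle RNA, had antibody 1 alone at 6.14, at an offset of −3 bp.

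JPX and FTX are both transcribed from the X-inactivation centre. JPX had antibody 2 alone, at a fold of 109 and with no antibody 1 summit within 1 kb, while FTX had antibody 1 at 10.9 and CTCF replicate 1 at 7.07. FIRRE, an X-linked RNA that organizes nuclear domains, had CTCF alone at 31.0 and 16.1.

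Among 30 stand-alone genes of a list of cancer-associated lncRNAs, 9 had a summit, beside 11.6% of all stand-alone promoters, and 21 had none, among them PVT1, MEG3, H19 and UCA1. Both Sp1 antibodies marked SAMMSON, a melanoma-associated RNA (12.03 and 4.74), LINC00662 (5.31 and 5.79) and LINC00667 (10.2 and 28.1). The last 2 also had CTCF replicate 1, at 2.72 and 7.48. Both CTCF replicates marked LINC00461 (230 and 92.5), LINC01116 (55.4 and 32.05), CCAT2 (63.0 and 37.0) and DRAIC (114 and 60.6), the last with antibody 1 at 6.02. CYTOR and CHASERR had antibody 1 only, at 3.56 and 3.82, with summits 848 and 924 bp inside the gene.

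**Figure D5:**
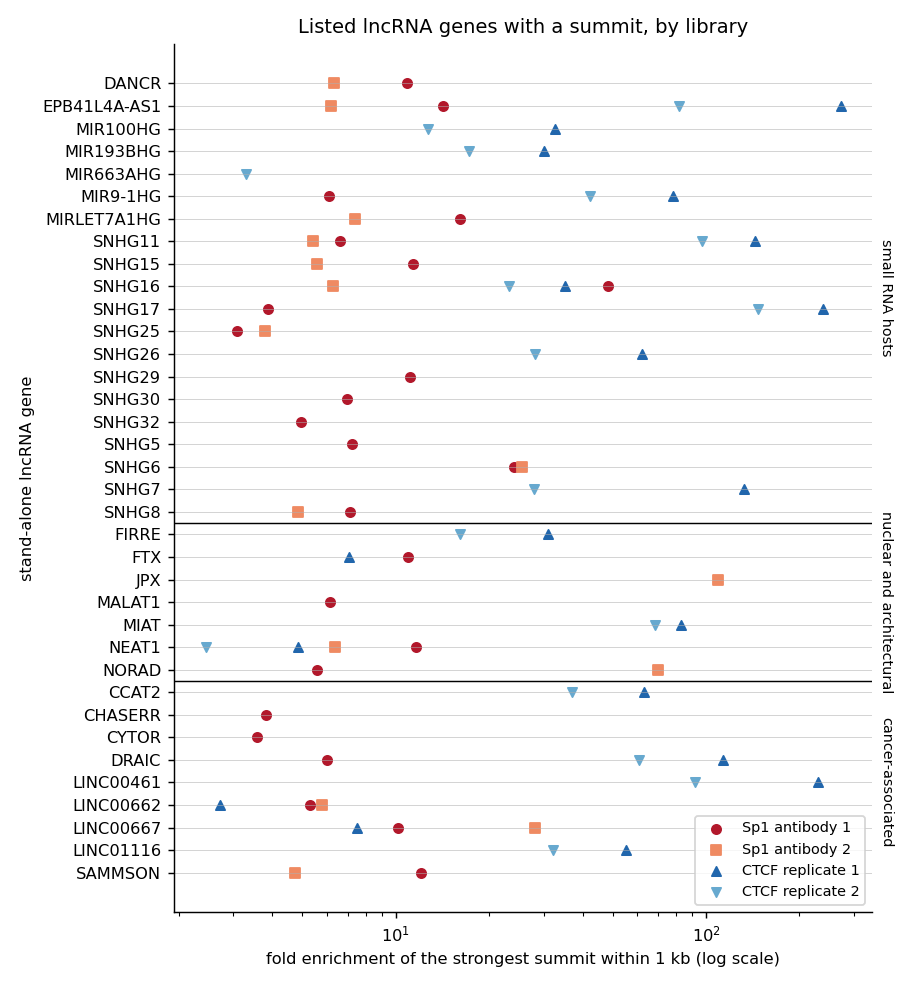
Each row is a stand-alone lncRNA gene of the 3 lists with at least 1 summit, and symbols give the fold enrichment of the strongest summit within 1 kb in each library on a log scale, with no symbol where a list had none. CTCF replicate 1 lies above replicate 2 wherever both are present, whereas antibody 2 exceeds antibody 1 at NORAD, LINC00667, SNHG25, SNHG6 and LINC00662, and JPX has antibody 2 alone.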

How the data were processed

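ChIP-seq was performed on U-2 OS cells in 8 libraries: 2 Sp1, 1 IgG, 2 CTCF and 3 input, of which the 5 immunoprecipitations have peak lists used here. Per the labels, reads were trimmed with cutadapt 2.6, aligned to hg38 with Bowtie2 2.4.5, handled with SAMtools 1.15.1, bedtools 2.27.1 and deepTools 3.5.4, and peaks were called with MACS2 2.2.7.1, with 1 list per library. The study's methods name other versions of the aligner. The authors deposited for each peak an interval, a fold enrichment over control (a linear ratio), a −log10 q of the summit and the summit position. The lowest deposited −log10 q was 1.30 to 1.43, so weaker sites are missing from the lists and an absent summit is not an absence of binding. For its replicate analysis the study describes MACS calls at a liberal p-value, without a local background and against merged controls. The deposited lists end near a q-value limit instead, and whether the other settings apply to them is not stated. The lists hold no read totals, and the study's supplementary table of read numbers was not used here, so no value is given with its depth.

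Gene 5′ ends, gene types and transcript starts were taken from GENCODE release 44. A gene was counted when a summit lay within 1 kb of its 5′ end. "Both" requires each antibody or each replicate, and the fold of a gene is that of its strongest summit. CpG observed over expected was computed over the window from hg38. Short words and the CTCF core were matched on either strand, up to 50 bp from the summit nearest the 5′ end, each summit once. The words differ and were counted separately, and may overlap one another in a window. Repeated summits were those whose central 32 bases occur more than once on chromosomes 1 to 22, X and Y. Intervals of shares are Wilson intervals and those of ratios use the log method. With 1 library per Sp1 antibody no p-value was computed. The code was checked on simulated data. RefSeq promoter sequences were matched to 2271 of the genes by symbol and not printed. Python 3.11.15, numpy 2.4.6, pandas 2.3.3, scipy 1.17.1, matplotlib 3.10.9 and samtools 1.23.1 were used.

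Named genes were the 6 highest by mean log2 fold for Sp1 and for CTCF, the 4 highest with all 4 lists, the 3 highest and the 3 lowest antibody ratios, any gene with an IgG summit (there was none) and the listed lncRNAs with a summit. A result on 1 listed gene is not reported here. The genes, lists and rules were chosen with earlier results of these data known. A gene starting within 5 kb of noncoding transcripts of a coding gene was kept, which touched 1024 genes.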

Additional observations from a re-analysis of the deposited data

How the results depend on the processing

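No paired analysis was possible because replicate numbers of the CTCF libraries recur only in inputs, which have no list used here. Of 85 alternative values, 48 stayed within the 95% interval of the reported value and 37 moved outside it. The limits are those of 1 library per antibody, of lists cut at a q-value and of an annotation whose 5′ ends are uncertain. The canonical transcript start and single-copy summits were alternatives chosen after seeing the data.
With windows of 500 bp and 2 kb the Sp1 share was 1.71% and 2.33%, the CTCF share 4.76% and 9.76% and the share with all 4 lists 0.290% and 0.758%. With named genes alone these were 3.12%, 8.13% and 0.754%, and the ratios of coding to stand-alone genes 5.74 for Sp1 and 1.90 for CTCF. Requiring the summits of a pair within 100 bp gave 1.49% for Sp1 and 0.327% for all 4 lists, and merging windows gave 1.75% for Sp1. Overlap of the peak interval gave 7.73% for CTCF. Single-copy summits gave 1.36% and 5.77%, ratios of 12.8 and 2.58, and a GC box share of 64.8%. Antibody 1 alone gave 3.89% for Sp1 and 1.00% with CTCF, and antibody 2 alone 2.65%, 0.646% and a CpG ratio of 62.1. The highest against the lowest 25% by CpG gave 5.72 for CTCF and no value for Sp1, since the lowest 25% held no Sp1.
Antibody 2 summits had a GC box in 41.3% and lay near the 5′ end in 62.5%. A 100 bp motif window gave 68.4% for the GC box, and 1 mismatch 55.1% for the CTCF core. Within 500 bp of the 5′ end lay 84.0% of Sp1 and 66.2% of CTCF summits. Leaving out each CTCF replicate gave 7.07 to 8.60% for CTCF, 0.557 to 0.684% for all 4 lists, ratios of 2.25 to 2.56, 15.0 to 18.0% with the core, 42.0 to 45.0% near the 5′ end and CpG ratios of 6.93 to 7.51.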
